A study of Mus musculus with 4 samples.

Results

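The 10 genes described here encode chemokines, a growth factor for macrophages, interleukin-1 alpha with its receptor, and a complement protease. They are Ccl2, Ccl7, Ccl9, Cxcl1, Cxcl5, Cxcl12, Csf1, Il1a, Il1r1 and C1s1, and they were taken by name from the annotation of the array. The table of 22534 probes held 18 probes of these genes, of which 11, from 9 genes, carried 1 gene name and a value on all 4 arrays. Those 9 genes were tested among 4754 genes, while Cxcl12 had no such probe and is given by its single probes.

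The study knocked down Selt, the gene of the selenocysteine-containing selenoprotein T, in NIH 3T3 cells, an established mouse fibroblast line. One set of cells carried the pU6-m3 plasmid with construct siSelT-1, against nucleotides 205 to 224 of the mRNA, a second carried the plasmid with siSelT-5, against nucleotides 971 to 989, and the reference cells carried the empty pU6-m3 vector. All 3 kinds of cells had been selected with 150 µg/ml hygromycin B and were grown with 10% serum and 100 nM sodium selenite, and whether they were pools or single clones is not given in the sources used here. Each construct was measured on 2 two-colour arrays with RNA of different cultures, with Cy5 on knockdown RNA and Cy3 on vector RNA on each array. A value is thus the log ratio of knockdown to vector within an array, read here as log2. A positive value means a higher level in knockdown cells, and a level in a single channel is not given. The labels give neither the base of the logarithm nor the direction of the ratio in words beyond the titles, so every fold rests on this reading. The dyes were not swapped, so a dye effect of a gene is not removed from its ratio to vector. It cancels in the difference between constructs.

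Chemokines are small secreted proteins that draw leucocytes along a gradient through G protein-coupled receptors, and fibroblasts are a major source of them in inflamed tissue. Interleukin-1 alpha is made by stressed or dying cells and acts on fibroblasts through the interleukin-1 receptor, whose signal passes through MyD88, IRAK and TAK1 to the transcription factor NF-kB. Ccl2, Cxcl1 and Csf1 are among the textbook targets of that signal. C1s is the serine protease of the first complement component, which cleaves C4 and C2.

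Promoter sequences are shown for 5 of these genes, chosen because each holds a match to a motif tied to inflammatory or basal transcription. Of the 10 genes, 7 had an entry in the RefSeq promoter table (GRCm38.p6), and Ccl2, Ccl7 and Cxcl5 had none. Each line gives the 250 bases before a gene start, 5′ to 3′ on the strand of the gene, with matches in capitals.
Cxcl1, chr5:90890995-90891244, plus strand: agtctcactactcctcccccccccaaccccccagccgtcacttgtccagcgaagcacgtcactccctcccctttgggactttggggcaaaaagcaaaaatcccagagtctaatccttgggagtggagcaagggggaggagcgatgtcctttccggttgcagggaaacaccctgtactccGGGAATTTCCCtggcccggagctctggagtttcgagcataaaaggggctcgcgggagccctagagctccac
Ccl9, chr11:83578637-83578886, minus strand: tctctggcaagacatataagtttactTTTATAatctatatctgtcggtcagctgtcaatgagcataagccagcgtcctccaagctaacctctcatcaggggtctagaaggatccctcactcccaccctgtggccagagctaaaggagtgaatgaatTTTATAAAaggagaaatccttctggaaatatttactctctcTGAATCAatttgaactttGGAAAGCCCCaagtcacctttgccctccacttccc
Csf1, chr3:107760470-107760719, minus strand: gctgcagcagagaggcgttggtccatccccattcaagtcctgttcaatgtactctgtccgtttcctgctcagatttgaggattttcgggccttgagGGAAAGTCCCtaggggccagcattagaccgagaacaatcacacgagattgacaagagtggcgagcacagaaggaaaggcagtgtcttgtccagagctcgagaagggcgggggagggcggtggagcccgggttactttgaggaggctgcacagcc
Il1r1, chr1:40266336-40266585, plus strand: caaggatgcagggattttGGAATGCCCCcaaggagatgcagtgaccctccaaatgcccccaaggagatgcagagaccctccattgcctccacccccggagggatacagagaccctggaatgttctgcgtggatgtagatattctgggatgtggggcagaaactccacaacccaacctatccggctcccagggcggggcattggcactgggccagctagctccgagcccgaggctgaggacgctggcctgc
Il1a, chr2:129309973-129310222, minus strand: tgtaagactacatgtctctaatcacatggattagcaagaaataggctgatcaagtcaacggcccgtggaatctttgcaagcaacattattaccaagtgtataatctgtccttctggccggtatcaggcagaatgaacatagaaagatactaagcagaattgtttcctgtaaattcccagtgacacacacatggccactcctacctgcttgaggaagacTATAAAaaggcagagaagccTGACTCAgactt
The motifs were the NF-kB consensus of 10 bases, the AP-1 site TGANTCA and the TATA box TATAAA, each searched on both strands. The NF-kB consensus matched in Cxcl1 as GGGAATTTCC 71 bases before the start (on both strands, overlapping), in Ccl9 at 35 bases, in Csf1 at 154 bases and at 1 of 2 Il1r1 starts at 232 bases, so in 4 of 7 genes. It occurred in 7.25% of 32851 promoters of this length. These belonged to 27025 genes, so that share is per promoter and not per gene, and the 7 genes had 9 promoters. The AP-1 site, found in 6.75% of promoters, matched in Ccl9 (53 bases) and Il1a (12 bases). The TATA box, found in 12.4%, matched in Il1a at 32 bases and in Ccl9 at 92, 94 and 224 bases, with those at 92 and 94 overlapping on opposite strands. As given below, the genes with an NF-kB match were higher (Cxcl1, Ccl9), lower (Il1r1) and not passed (Csf1) in knockdown cells. A match is a description of the letters only.

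Values were present for 7689 and 9232 probes with siSelT-1 and for 20268 and 18361 with siSelT-5. Over the 7038 probes shared by the 4 arrays, the median ratio, averaged over the arrays of a construct, was 0.14 log2 for siSelT-1 and 0.39 for siSelT-5. This is the shift of a construct, and results are also given centred, with the shift of each array taken off. Selt had 0 probes under its old or current name, and its knockdown was not analysed here. Of 14 fibroblast markers, 13 had a probe, 11 had a value on both siSelT-5 arrays and 8 on all 4 arrays. For macrophage and other leucocyte markers these counts were 9, 7 and 2 of 14, for endothelial markers 6, 4 and 3 of 8, and for epithelial markers 5, 2 and 0 of 6. A ratio does not show whether a marker is expressed.

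The 9 tested genes were placed in 3 steps by their mean ratio over both constructs. Cxcl5 (0.61), Cxcl1 (0.54) and Ccl9 (0.53) rose, Csf1 (0.04), Ccl7 (0.03) and C1s1 (-0.03) did not pass, and Ccl2 (-0.68), Il1r1 (-0.79) and Il1a (-0.84) fell. The 95% intervals of neighbours within a step overlapped. Those of neighbours across steps did not. The lowest bound of the upper step was 0.33 and the highest of the middle step 0.29, and then -0.23 against -0.41. As the steps were drawn from these same means, the intervals are no test of them. The steps did not hold for each construct alone. With siSelT-5 Ccl9 (0.27) stood beside C1s1 (0.26), and with siSelT-1 Il1a (-0.35) stood beside C1s1 (-0.33). Over both constructs 6 of 9 passed, where 53.7% of the 4754 genes did (limma, Benjamini-Hochberg adjusted p under 0.05 over all genes). Of the 6, 3 were higher (45.7% of all genes) and 3 lower (8.04%). After centring 7 of 9 passed (42.4% of all genes), with Ccl9, Cxcl1 and Cxcl5 higher (20.5%) and C1s1, Ccl2, Il1a and Il1r1 lower (21.9%). The median ratio was 0.03 over the 9 genes and 0.25 over all tested genes, or -0.23 and -0.02 centred. The counts as deposited rest on the siSelT-1 arrays: with either left out fewer of the 9 genes passed, as fewer of all genes did. The lone array was then taken to vary like those of siSelT-5. In those fits the 3 higher genes averaged 0.53 to 0.61 and the 3 lower ones -0.91 to -0.61. All 4 arrays were above vector for 3 of the 9 genes (44.9% of all genes) and all below it for 3 (8.60%).

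**Figure D1:**
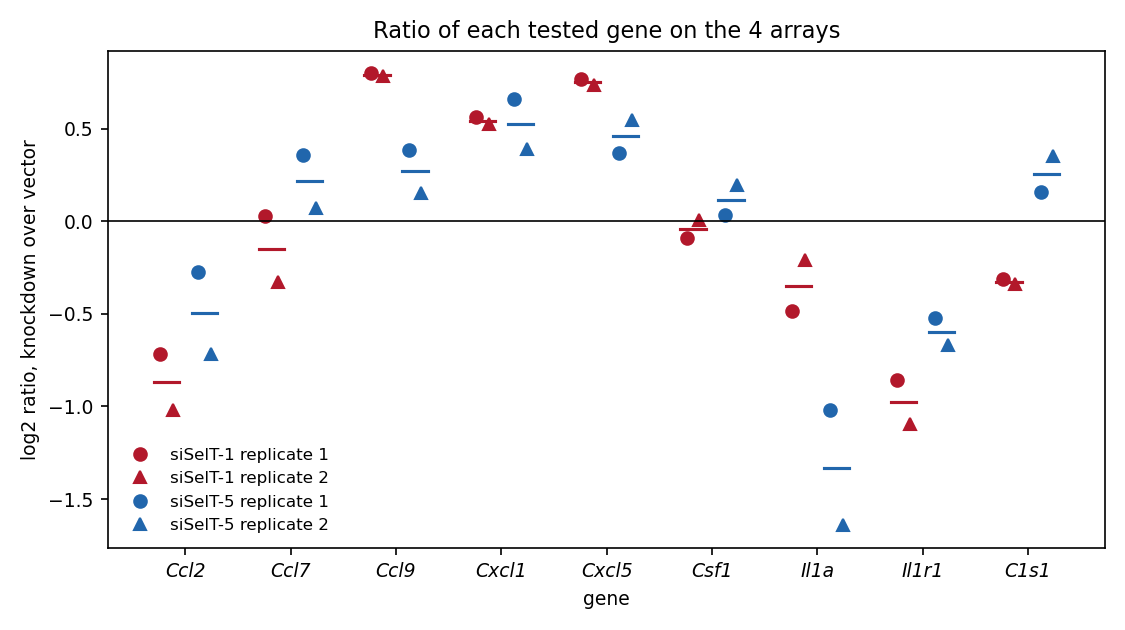
The vertical axis is the log2 ratio of knockdown to vector RNA, with a point for each array and a bar at the mean of the 2 arrays of a construct, for the 9 tested genes. Il1a, Il1r1 and Ccl2 lie below 0 on all 4 arrays and Cxcl1, Cxcl5 and Ccl9 above it, and C1s1 lies below 0 with siSelT-1 and above it with siSelT-5.

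Il1r1 encodes the receptor chain that binds interleukin-1. Its ratio was -0.85 and -1.09 with siSelT-1 and -0.52 and -0.67 with siSelT-5. All 4 values were below vector, and the values of siSelT-1 were the lower ones with no overlap. The mean was -0.79 ± 0.25 (SD, n = 4), or 1.72-fold lower (adjusted p = 0.00196), and it was -1.05 after centring (adjusted p = 0.00413). With siSelT-1 alone Il1r1 stood at -0.97 (95% interval -1.28 to -0.67, adjusted p = 0.0256), the 19th lowest of 4754 genes, and with siSelT-5 at -0.60 (-0.90 to -0.30, adjusted p = 0.0100). A second Il1r1 probe was measured with siSelT-5 only, at -0.18 and -1.29, also below 0 but far apart.

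Il1a encodes interleukin-1 alpha, a ligand of that receptor. Its ratio was -0.49 and -0.21 with siSelT-1 and -1.02 and -1.64 with siSelT-5. The siSelT-5 values were the lower ones here, the opposite order to Il1r1, and the groups did not overlap. The mean was -0.84 ± 0.63 (SD, n = 4; adjusted p = 0.00394), or -1.11 centred (adjusted p = 0.00521). siSelT-5 alone gave -1.33 (-1.78 to -0.89), or 2.52-fold lower, the 21st lowest gene (adjusted p = 0.00305). siSelT-1 gave -0.35 (-0.79 to 0.10), which did not pass (adjusted p = 0.224). The difference of the constructs was 0.98 (0.35 to 1.61), siSelT-1 minus siSelT-5, and it missed the threshold over all genes (adjusted p = 0.0655). The 2 siSelT-5 arrays lay 0.62 apart, against a median gap of 0.25 over all genes.

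Ccl2 encodes the monocyte chemoattractant MCP-1, a ligand of the receptor CCR2. Its ratio was -0.72 and -1.02 with siSelT-1 and -0.28 and -0.72 with siSelT-5, so all 4 arrays were below vector and the constructs overlapped. The mean was -0.68 ± 0.31 (SD, n = 4), or 1.60-fold lower (adjusted p = 0.00478), and -0.95 centred (adjusted p = 0.00450). Ccl2 fell with siSelT-1 alone, to -0.87 (adjusted p = 0.0338), the 33rd lowest gene, and with siSelT-5 alone, to -0.50 (adjusted p = 0.0399). Among the 9 genes, Ccl2 and Il1r1 had the most alike ratios, 0.30 apart in Euclidean distance over the 4 arrays.

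Ccl7, which encodes MCP-3, another monocyte chemoattractant, is the next coding gene to Ccl2 on chromosome 11. Its ratio was 0.03 and -0.33 with siSelT-1 and 0.36 and 0.07 with siSelT-5, on either side of vector. The mean was 0.03 (-0.22 to 0.29) and did not pass (adjusted p = 0.793), nor did it centred, at -0.23 (adjusted p = 0.0818). Ccl9, described next, lies on the same chromosome with 30 coding genes between it and Ccl7.

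Ccl9, or MIP-1 gamma, is a rodent chemokine that acts through CCR1. Its ratio was 0.80 and 0.78 with siSelT-1 and 0.39 and 0.15 with siSelT-5. All 4 values were above vector, the siSelT-1 values higher than both siSelT-5 values. The mean was 0.53 ± 0.32 (SD, n = 4), or 1.44-fold higher (adjusted p = 0.00428), and 0.26 centred (adjusted p = 0.0379). siSelT-1 alone gave 0.79 (0.50 to 1.08; adjusted p = 0.0313), the 109th highest gene, and siSelT-5 gave 0.27 (-0.02 to 0.56), which did not pass (adjusted p = 0.0997). The difference of 0.52 (0.11 to 0.93) missed the threshold (adjusted p = 0.0896).

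Cxcl5 and Cxcl1 encode chemokines that draw neutrophils through CXCR2, and they lie on chromosome 5 with 4 coding genes between them. Cxcl5 stood at 0.77 and 0.74 with siSelT-1 and at 0.37 and 0.55 with siSelT-5, all above vector and higher with siSelT-1. Its mean was 0.61 ± 0.19 (SD, n = 4), or 1.52-fold higher (adjusted p = 0.00277), with 0.75 for siSelT-1 (adjusted p = 0.0315) and 0.46 for siSelT-5 (adjusted p = 0.0184). Cxcl1 stood at 0.56 and 0.53 with siSelT-1 and at 0.66 and 0.39 with siSelT-5, and here the constructs overlapped. Its mean was 0.54 ± 0.11 (adjusted p = 0.00454), with 0.54 for siSelT-1 (adjusted p = 0.0442) and 0.53 for siSelT-5 (adjusted p = 0.0144). The difference between constructs was 0.29 (-0.10 to 0.69) for Cxcl5 and 0.02 (-0.41 to 0.44) for Cxcl1, and neither passed (adjusted p = 0.238 and 0.953).

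With siSelT-5 the ratios of the 3 raised chemokines depended on how the arrays were centred. Centred on the shared probes, the siSelT-5 ratio was 0.07 for Cxcl5, 0.13 for Cxcl1 and -0.12 for Ccl9 (adjusted p = 0.653, 0.344 and 0.371), and none passed. Centred on the median of all values of each array, which lay at -0.22 and -0.19 with siSelT-5, these ratios were 0.67, 0.74 and 0.48 and passed (adjusted p = 0.00383, 0.00422 and 0.0157), and Ccl2 stood at -0.29 and did not (adjusted p = 0.143). With siSelT-1 the ratio centred on the shared probes was 0.61 for Cxcl5 and 0.65 for Ccl9, which passed (adjusted p = 0.0392 and 0.0352), and 0.40 for Cxcl1, which did not (adjusted p = 0.0738). Among the lowered genes, centred on the shared probes with siSelT-5, Il1a stood at -1.72, Il1r1 at -0.99 and Ccl2 at -0.89, and all 3 passed (adjusted p = 0.00663, 0.00663 and 0.0105). With siSelT-1, centred Il1r1 (-1.11) and Ccl2 (-1.01) passed (adjusted p = 0.0263 and 0.0299) and Il1a (-0.49) did not (adjusted p = 0.132).

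**Figure D2:**
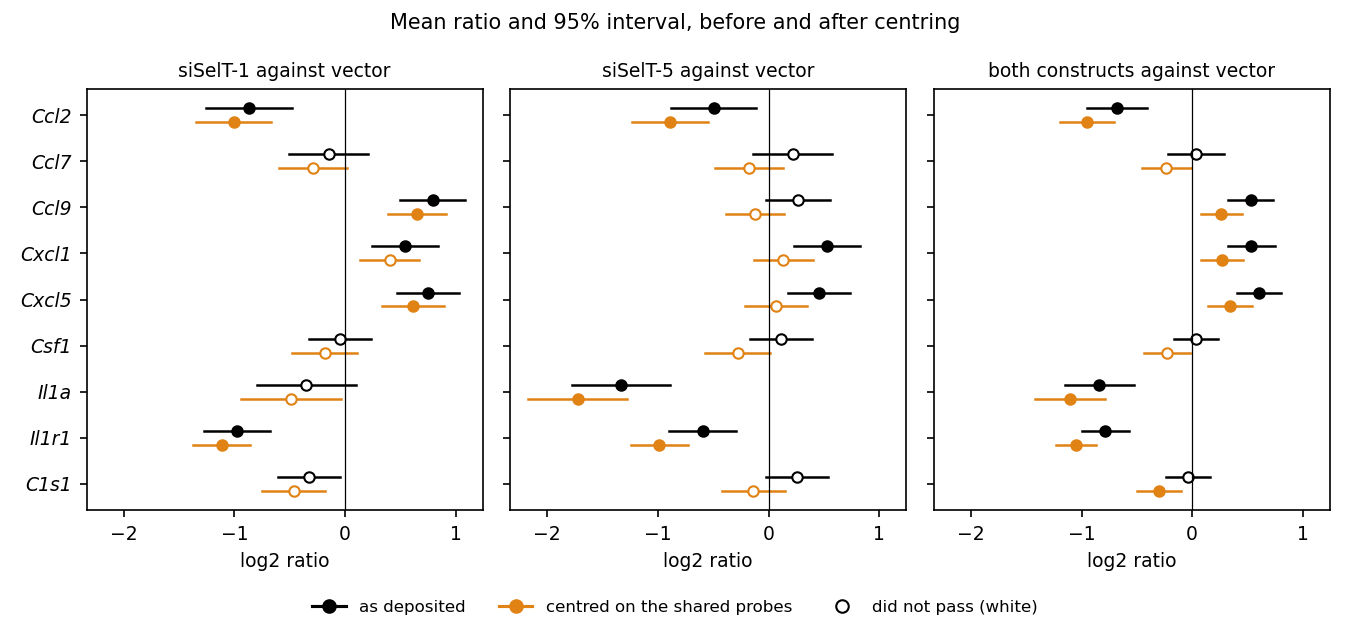
Each point is a mean log2 ratio of knockdown to vector with its 95% interval from limma, as deposited (black) and centred on the shared probes (orange), for siSelT-1, siSelT-5 and both constructs together. White points did not pass at an adjusted p of 0.05; with siSelT-5 the centred points of Ccl9, Cxcl1 and Cxcl5 lie near 0, while those of Ccl2, Il1a and Il1r1 lie further below it than as deposited.

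Csf1 encodes the macrophage colony stimulating factor. Its tested probe stood at -0.09 and 0.01 with siSelT-1 and at 0.03 and 0.20 with siSelT-5, close to vector on each array, with a mean of 0.04 (-0.16 to 0.23; adjusted p = 0.723). After centring the mean was -0.23 (adjusted p = 0.0739). A second Csf1 probe was measured with siSelT-5 only and gave -1.33 and -0.06, which lie far apart.

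C1s1 encodes C1s and had the most tested probes of the 9 genes. The mean of its 3 probes was -0.31 and -0.34 with siSelT-1 and 0.16 and 0.35 with siSelT-5, so siSelT-1 lay below vector and siSelT-5 above it with no overlap. Neither passed alone (adjusted p = 0.107 and 0.106). The difference was -0.58 (-0.98 to -0.18), siSelT-1 minus siSelT-5, and missed the threshold (adjusted p = 0.0723). Centred, both constructs stood below 0, at -0.47 and -0.14, and their mean of -0.30 passed as lower (adjusted p = 0.0328). Fitted singly, the 3 probes averaged -0.08, -0.31 and -0.59 with siSelT-1 and 0.50, 0.21 and 0.06 with siSelT-5, so the probes had the same order of constructs but not the same level. One of them stood at -0.31 and 0.73 on the siSelT-5 arrays. Singly, the probe at -0.59 passed as lower with siSelT-1 and the probe at 0.50 as higher with siSelT-5 (limma, adjusted p = 0.0459 and 0.0153). No other of these probes passed for a construct alone. A further probe, named for both C1s1 and its close copy C1s2, had a single value, -1.83 on siSelT-5 replicate 1, and how far the probes tell the copies apart is not given in the sources used here.

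Cxcl12 encodes SDF-1, the CXCR4 ligand made by stromal cells. None of its 4 probes had a value on siSelT-1 replicate 1, and 1 had a value on siSelT-1 replicate 2, of -3.05. That probe stood at 0.18 and 0.27 with siSelT-5. On siSelT-1 replicate 2, 5 of 9232 values were at -3 or lower. The other probes had siSelT-5 values only: 2 probes annotated to one RefSeq transcript gave 0.92 and 1.03, and 1.61 and 1.43, and a probe annotated to the other transcript gave -0.11 and 0.09. Both siSelT-5 arrays thus placed the first pair above vector and the last probe near it. For comparison, the 7460 probes measured on both arrays of siSelT-5 and neither of siSelT-1 had a median siSelT-5 ratio of -0.63, against 0.38 for the shared probes. No test was made of single Cxcl12 probes. If a value on 1 array of each construct was enough, the gene mean was -1.19 and passed (adjusted p = 0.00432), but its siSelT-1 part was that single value of -3.05, from another set of probes than the siSelT-5 mean of 0.68.

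**Figure D3:**
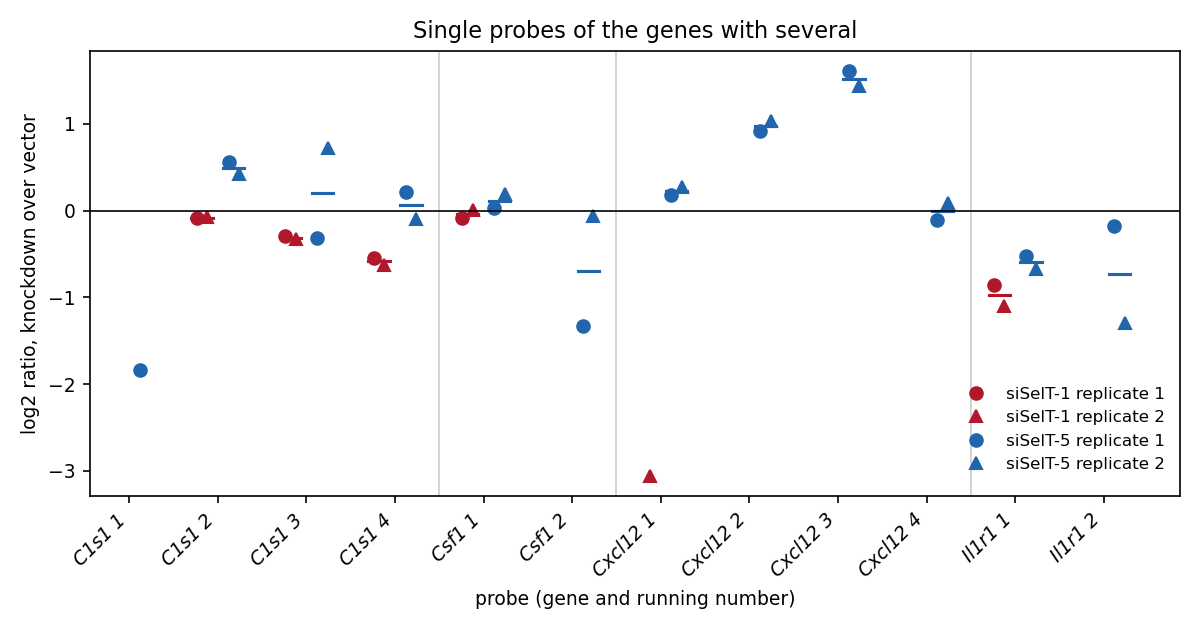
The vertical axis is the log2 ratio of knockdown to vector RNA for each probe of C1s1, Csf1, Cxcl12 and Il1r1, with a point for each array that had a value and a bar where both arrays of a construct had one. C1s1 probe 1 is the probe named for 2 genes, and Cxcl12 probe 1 carries the value of -3.05 on siSelT-1 replicate 2.

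The constructs were compared directly as siSelT-1 minus siSelT-5. None of the 9 genes passed, with 3 of 4754 genes passing (0.0631%). At an unadjusted p under 0.05 were 1697 of the 4754 genes and, of the 9, C1s1, Ccl9 and Il1a (limma, unadjusted p = 0.0124, 0.0213 and 0.00920). Centred on the median of all values of each array, C1s1 (-0.91), Ccl2 (-0.70), Ccl7 (-0.70) and Il1r1 (-0.71) passed as lower with siSelT-1, and 2512 of all genes passed in either direction. Without siSelT-5 replicate 1, or without its replicate 2, 3 of the 9 passed, as did 1796 and 1789 of all 4754 genes, with the lone siSelT-5 array taken to vary like those of siSelT-1. The 2 arrays of a construct stood clear of those of the other for 7 of 9 genes (64.5% of all genes). The siSelT-1 arrays lay above both siSelT-5 arrays for 3 genes (Ccl9, Cxcl5 and Il1a; 11.9% of all genes) and below both for 4 (C1s1, Ccl7, Csf1 and Il1r1; 52.6%). With siSelT-1 alone 5 of 9 passed (13.7% of all genes), 3 higher (10.3%) and 2 lower (3.37%), and centred 4 passed (8.90%), 2 higher (3.83%) and 2 lower (5.07%). With siSelT-5 alone 5 of 9 passed (53.9%), 2 higher (47.6%) and 3 lower (6.29%), and centred 3 passed (39.2%), 0 higher (19.2%) and 3 lower (20.0%). Ccl2, Il1r1, Cxcl1 and Cxcl5 passed for each construct alone in the same direction (10.5% of all genes). These contrasts share the vector as the other channel, and whether the arrays shared a vector culture is not given in the sources used here.

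**Figure D4:**
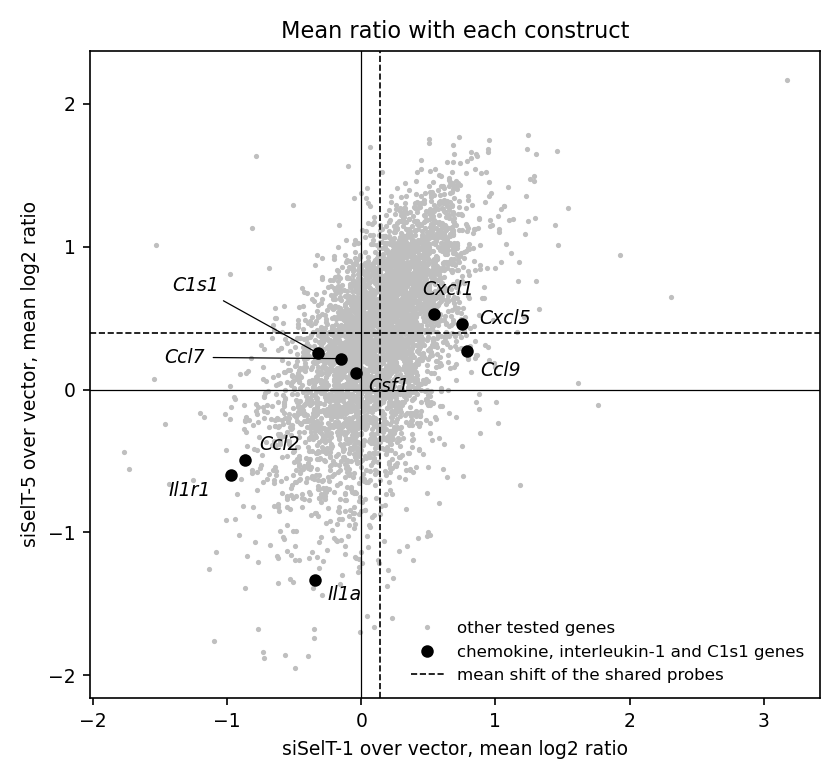
Each grey point is a tested gene, placed by its mean log2 ratio with siSelT-1 (horizontal) and siSelT-5 (vertical), and black points are the 9 genes. Il1r1 and Ccl2 lie at the lower left and Il1a at the bottom, while Ccl9, Cxcl1 and Cxcl5 lie right of the dashed line at 0.14 and near the one at 0.39, the mean shifts of the shared probes.

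Beside the lists that follow, 45.7% of all 4754 genes passed as higher and 8.04% as lower as deposited, with a median of 0.25, and 20.5% and 21.9% centred. Other chemokine ligands had 2 tested genes of 32 listed, and both rose. The skin chemokine gene Ccl27a stood at 0.64 and 0.70 with siSelT-1 and at 0.71 and 0.69 with siSelT-5, with a mean of 0.68 ± 0.03 (SD, n = 4; adjusted p = 0.00197, centred 0.0111). Cx3cl1, for the membrane-bound chemokine fractalkine, stood at 0.85 and 0.64 and at 0.35 and 0.39, with a mean of 0.56 ± 0.24 (adjusted p = 0.00364, centred 0.0276). Like Cxcl5 and Ccl9, Cx3cl1 was higher on the siSelT-1 arrays, and centred it stood at -0.03 with siSelT-5. Of 23 chemokine receptor genes none was tested, and 5 had values on both siSelT-5 arrays.

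Of 30 further genes of the interleukin-1 family and its signalling, 7 were tested, 1 rose and 2 fell, with a median of 0.04 (45.7% higher, 8.04% lower and a median of 0.25 over all genes). Map3k7, for the kinase TAK1, stood at -0.42 and -0.59 with siSelT-1 and at -0.75 and -1.22 with siSelT-5, with a mean of -0.75 (adjusted p = 0.00332, centred 0.00430). Ecsit, for an adaptor of TRAF6, fell to -0.46 (adjusted p = 0.00722, centred 0.00442). Myd88, for the adaptor at the receptor, rose to 0.47 (adjusted p = 0.0208), but not centred (0.21; adjusted p = 0.230). Il1rap, for the second chain of the receptor, averaged -0.06, with -0.18 and -0.50 for siSelT-1 and 0.38 and 0.06 for siSelT-5, on either side of vector. It did not pass as deposited and passed as lower after centring (-0.33; adjusted p = 0.0324). Tollip (0.05) and Tab2 (0.16), for regulators of the same signal, did not pass on either scale.

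Of 16 genes of NF-kB subunits and inhibitors, 4 were tested and 1 rose (45.7% of all genes). Rela, for the subunit p65, rose to 0.63 (0.37 and 0.43 with siSelT-1, 0.76 and 0.95 with siSelT-5; adjusted p = 0.00269, centred 0.0227). Nfkbia (0.27), Ikbkb (0.21) and Tnip1 (-0.0039) did not pass, and centred Tnip1 passed as lower (-0.27). Of 28 genes of other fibroblast cytokines, receptors and enzymes, 8 were tested, and 3 rose and 0 fell, with a median of 0.24, close to the 45.7% higher and the median of 0.25 over all genes. Centred, 1 was higher and 1 lower. Mif, for macrophage migration inhibitory factor, rose to 0.67 (adjusted p = 0.00252, centred 0.0117). Tnfrsf1a (0.34) and Il6ra (0.25) passed as higher by their means as deposited and did not pass centred. Il6ra lay below vector with siSelT-1 (-0.13 and -0.18) and above it with siSelT-5 (0.62 and 0.68). Osm (0.38), Ptges (0.24) and Il6st (-0.31) did not pass as deposited, and Il6st passed as lower centred (-0.58).

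Of 34 other complement genes, 5 were tested, and 3 rose and 0 fell, where 45.7% and 8.04% of all genes did. Centred, 2 were higher and 1 lower. C4a, for the sex-limited protein, a close relative of complement C4, stood at 0.75 and 1.03 with siSelT-1 and at 1.41 and 1.63 with siSelT-5, with a mean of 1.21 ± 0.39 (SD, n = 4; adjusted p = 0.00161, centred 0.00497). C4b, for C4 itself, the substrate of C1s, rose to 0.35 (adjusted p = 0.0396) and did not pass centred (0.08; adjusted p = 0.518), and the probes may not tell the copies apart. C1qbp, for a protein that binds C1q, rose to 0.54 (adjusted p = 0.00386, centred 0.0392). C1ra, for C1r, the protease that activates C1s, had the pattern of C1s1: -0.40 and -0.54 with siSelT-1 and 0.35 and 0.53 with siSelT-5, on either side of vector by construct. The difference of -0.91 missed the threshold (adjusted p = 0.0543). Its mean of -0.02 did not pass as deposited and passed as lower centred (-0.28, limma adjusted p = 0.0359), as that of C1s1 did. Centred, C1ra stood at -0.61 with siSelT-1 and 0.05 with siSelT-5, whereas C1s1 was below 0 with both. Both siSelT-1 arrays lay below both siSelT-5 arrays for 52.6% of all genes. Cr1l (-0.06) did not pass.

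Markers of cell types moved beside these genes, and their part in the results was not tested. Of the 8 fibroblast markers, 4 rose and 3 fell (45.7% and 8.04% of all genes), from Fn1 at -0.61 to Pdgfra at 0.88, with a median of 0.11. Postn stood at -0.75 and -0.82 with siSelT-1 and at 1.72 and 1.55 with siSelT-5, and was 1 of the 3 genes that passed for the difference. It is among the 4 that rose by its mean of 0.43, though it lay below vector with siSelT-1. Vim (0.57) and Thy1 (0.37) rose. Dcn fell by its mean (-0.37), with -0.88 and -0.84 for siSelT-1 but 0.21 and 0.02 for siSelT-5. The 3 endothelial markers rose, Cd34 to 0.72, Pecam1 to 0.70 and Tie1 to 0.72, and neither lysozyme gene of the leucocyte list passed, with Lyz2 at -0.20 and Lyz1 at -0.16. Centred, 2 fibroblast markers were higher and 4 lower, the 3 endothelial markers were higher, and Lyz2 (-0.47) and Lyz1 (-0.43) passed as lower, where 20.5% of all genes were higher and 21.9% lower. In bulk RNA, fewer cells of a type and less RNA per cell cannot be told apart.

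The genes most like Cxcl5, the highest of the 9, were Cuta, Hipk2 and Nid1, at Euclidean distances of 0.15, 0.17 and 0.20 over the 4 arrays. Those most like Il1a, the lowest, were Zfp688, Trps1 and Mtbp, at 0.33, 0.40 and 0.42. With 4 arrays such a likeness is a description of the ratios only.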

How the data were processed

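The authors deposited log ratios (here read as log2) of knockdown to vector channel in a single table, with channels and dyes per the labels. The log base, background correction, normalization and filter behind empty cells are not given in the sources used here. Read as log10, the highest value would be a 49272-fold change.

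Of 22534 probes 18129 carried 1 gene name, 140 several and 4265 none, and 18041 matched RefSeq (GRCm38.p6) by Entrez identifier. A gene was the mean of its single-name probes with values on all 4 arrays (4754 genes). The 2 construct means were estimated by limma 3.58.1 (lmFit, eBayes; R 4.3.3), with two-sided p-values adjusted by Benjamini-Hochberg over all genes. Intervals are 95% intervals. A value after ± is the SD over the 4 arrays of both constructs and so includes the difference between them. The limma p-values and intervals rest on the spread within constructs instead. Code was tested on simulated data. The spread of vector cultures enters no test, and the number of arrays limits the precision.

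The 10 genes, the lists and the tests were chosen with earlier results of these data known. Named were all 10 genes, from each further list at most 6 genes by smallest unadjusted p, and the 3 genes nearest to the highest and lowest. Alternatives were other centrings, a scaled spread, a looser filter, single or unnamed probes, robust eBayes, weighted arrays, a replicate block and leaving out each array.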

Additional observations from a re-analysis of the deposited data

Results flagged for a closer look

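Only the 9 tested genes and the genes named above from the other lists were screened here. Of these, genes are given where the 2 arrays of siSelT-1 lay on one side of vector and the 2 of siSelT-5 on the other, or where the difference of the constructs passed. The values are siSelT-1 minus siSelT-5 in log2. Among the 9 tested genes of the set this was C1s1, at -0.58 (limma, adjusted p = 0.0723), with siSelT-1 below vector and siSelT-5 above it. Among the genes named from the other lists it was C1ra (-0.91), Il1rap (-0.56), Tollip (-0.70), Ikbkb (-0.62), Tnip1 (-0.26), Il6ra (-0.81), Dcn (-0.97) and Postn (-2.42). In each of these siSelT-1 was the lower, as both siSelT-1 arrays were for 52.6% of all genes. Postn alone of these passed the test of the difference (adjusted p = 0.0219), and its arrays also lay on opposite sides of vector. The shift of the shared probes was lower with siSelT-1 (0.14) than with siSelT-5 (0.39). The differences of the other 8 genes did not pass. The list of other fibroblast cytokines, receptors and enzymes held a gene with siSelT-1 the higher, by 0.95, which did not pass. It was not among the genes named and was not screened. Centred, the difference was -0.33 for C1s1, -0.66 for C1ra, -0.31 for Il1rap, -0.44 for Tollip, -0.36 for Ikbkb, -0.0034 for Tnip1, -0.55 for Il6ra, -0.72 for Dcn and -2.17 for Postn, and Postn alone passed (adjusted p = 0.0379). The centred means of both constructs were below 0 for C1s1, Il1rap, Tnip1 and Dcn, so these no longer lay on opposite sides. Those of C1ra, Tollip, Ikbkb, Il6ra and Postn still did, with C1ra (0.05) and Tollip (0.0045) close to 0 with siSelT-5. The share of all tested genes on opposite sides of vector was not counted.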

How the results depend on the processing

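Each of the 9 genes was refitted in 4 contrasts under 13 alternatives. Of 468 such values 368 kept direction and side of the threshold, 45 lost the call, 27 gained a call and 28 turned in direction. The causes were not tested. In the single-probe alternative the probe with the smallest p stood for a gene, chosen anew in each contrast. This concerns C1s1, the only gene of the 9 with several tested probes. Among the 9 genes, 6 passed for both constructs as reported and 0 to 6 with each array left out: 0 without siSelT-1 replicate 1 (limma then called 0 of all genes, and 1846 had an unadjusted p below 0.05). It was 3 without replicate 2 of that construct. For siSelT-1, 5 passed as reported, 0 with the looser filter (or 1 with Cxcl12, the tenth gene, by its single value), 0 with the replicate block and 0 to 7 with each array left out. For siSelT-5, 5 passed as reported, 3 centred on the shared probes, 8 centred on all values (3181 of all 4754 genes), 3 with a scaled spread and 2 to 6 with each array left out. For the difference, 0 passed as reported, 4 centred on all values, 0 with the looser filter (or 1 with Cxcl12, by the same value) and 0 to 3 with each array left out. The titles do not say whether replicate numbers pair the samples. Same-numbered deviations correlated at 0.08 across genes, which cannot settle this with 2 arrays per construct. With the replicate block the siSelT-1 calls were lost (limma, adjusted p = 0.0534 to 0.0595).

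For both constructs, Ccl7 was -0.23 and Csf1 -0.23 centred on the shared probes, Ccl7 -0.26 and Csf1 -0.23 with the scaled spread, Csf1 -0.17 with the looser filter and C1s1 0.0082 centred on all values. With each array left out, C1s1 ranged between -0.084 and 0.014, Ccl7 between -0.055 and 0.12 and Csf1 between -0.0048 and 0.078. For siSelT-1 that range was -0.33 to 0.031 for Ccl7 and -0.090 to 0.0076 for Csf1. For siSelT-5, C1s1, Ccl7, Ccl9 and Csf1 were -0.14, -0.18, -0.12 and -0.28 centred, and -0.12, -0.14, -0.10 and -0.24 with the scaled spread, and Csf1 was -0.29 with the looser filter. For the difference, Csf1 was 0.10 centred, 0.0052 with the scaled spread and 0.25 with the looser filter, Cxcl1 -0.32 and Cxcl5 -0.038 centred on all values, and Cxcl1 -0.12 to 0.15 with each array left out.

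Over all genes, 650 passed for siSelT-1 as reported, against 423 centred, 324 centred on all values, 1588 with the scaled spread, 58 with the looser filter, 1920 with array weights, 35 with the replicate block and 0 to 2089 with each array left out. For both constructs 2554 passed, against 0 and 873 without siSelT-1 replicate 1 and 2. For siSelT-5 2563 passed, against 1460 with the scaled spread and 1623 without either siSelT-1 array. For the difference 3 passed, against 2512 centred on all values, 15 with the scaled spread, 6 with the looser filter, 279 with array weights, 0 with the replicate block (limma; 1674 at an unadjusted p below 0.05) and 0 to 1796 with each array left out.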

Other observations

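Ccl2 and Ccl7, adjacent genes of monocyte chemoattractants, differed by nearly the same amount on every array. This pair was chosen after its values were seen, and the share of all gene pairs that were as constant was not counted. Ccl2 minus Ccl7 was -0.75 and -0.69 with siSelT-1 and -0.63 and -0.79 with siSelT-5, with a mean of -0.72 ± 0.07 (SD, n = 4). The pair Cxcl5 minus Cxcl1 stood at 0.21 and 0.21 with siSelT-1 and at -0.30 and 0.16 with siSelT-5. For Il1r1 minus Il1a the values were -0.37 and -0.88 with siSelT-1 against 0.50 and 0.97 with siSelT-5, so the receptor was the lower of these with siSelT-1 and the ligand with siSelT-5. A ratio within an array shows unequal change and a shared array effect cancels in it, but a dye effect of a probe does not cancel within one construct.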
